A study of Homo sapiens with 8 samples.

Results

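AP-1 is a family of dimeric transcription factors built from basic leucine zipper proteins. The genes examined here were the JUN subunits JUN, JUNB and JUND, the FOS subunits FOS, FOSB, FOSL1 and FOSL2, and their dimerization partners BATF and ATF3. Of 20136 annotated protein-coding genes these are 9, and they were chosen by name, not by binding. All peaks were collected whose summit lay in the annotated gene body or within 20 kb of it, which gave 344 of the 235023 peaks in 4 lists. The lists come from ChIP-seq, in which DNA fragments precipitated with an antibody are sequenced to find where a protein sits on the genome. The cells were U937, a human monoblastic line, and each list comes from 1 stable clone carrying a retroviral Tet-inducible construct. The clone for AML1-ETO was #4 and the clone for ETO2-GLIS2 was #14. Each fusion protein carried an N-terminal HA tag, was induced for 12 or 48 h with 5 µg/ml doxycycline, and was precipitated with anti-HA beads. The series holds 8 libraries, 4 ChIP and 4 input, with 1 ChIP library for each protein and time. Differences between lists therefore cannot be set against replicate error, and none was tested. The lists hold no read numbers. The study gives unequal read totals for the libraries, which were not used here.

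AML1-ETO binds DNA through the Runt domain of its RUNX1 portion, which is fused to ETO (RUNX1T1), whereas ETO2-GLIS2 binds through the GLIS2 zinc fingers fused to ETO2 (CBFA2T3). AP-1 dimers bind a short palindromic element, and JUN proteins can pair with one another or with FOS proteins, whereas FOS proteins need a partner. Many of these genes are immediate early genes, which are transcribed within minutes of a growth or stress signal without new protein synthesis. In monocytic cells AP-1 subunits are induced as the cells mature towards macrophages. A peak at a gene is a place where the tagged protein was precipitated and says nothing of how the gene was expressed.

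Positions are given in bp from the start of the MANE Select transcript along the direction of the gene, so that negative values lie upstream. Coordinates are hg19 (GRCh37). Peaks were ranked within their own list by the peak caller's −log10 q-value, with ties at their mean rank, and a rank is also given as a percent of the list length. A small percent is thus a strong peak within its list. The same rank gives a smaller percent in a longer list, so percents from lists of unlike length are not directly comparable. At 12 h the list of AML1-ETO had 70833 peaks and that of ETO2-GLIS2 had 28325, and at 48 h they had 105769 and 30096. The fold enrichment is the caller's ratio of ChIP signal at the summit over local background, and it was not compared between lists.

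The AP-1 element itself was found near summits at 8 of the 9 genes. The share of all genes with such a site was not computed, and a gene with more peaks has more windows that can hold one. These AP-1 sites are shown first because they are the places where a fusion protein peak and the family's own recognition sequence coincide. Across the 4 lists, 20 member peaks held TGACTCA or its reverse complement TGAGTCA within 200 bp centred on the summit, and these matches were 10 distinct sites. This was 4.30% and 5.88% of the AML1-ETO peaks at these genes at 12 and 48 h and 7.14% and 6.78% of the ETO2-GLIS2 peaks, close to the 4.54%, 4.74%, 5.80% and 4.84% of all peaks in the same lists. The 5 sites below were those matched in more than 1 list, a choice made after the values were seen. Each is printed on the strand of its gene with 11 bases on either side, and capitals mark the element.
JUNB, chr19:12897100-12897128, plus strand: tgcccactggcTGACTCAcaggcagcccc
JUND, chr19:18385809-18385837, minus strand: ccagccagcggTGACTCAtgctgggcccc
FOSB, chr19:45959357-45959385, plus strand: ggcatggggccTGAGTCAgggacagggtg
FOSB, chr19:45952266-45952294, plus strand: acgtagccctgTGAGTCAtgcggcagaca
FOSL1, chr11:65667843-65667871, minus strand: cacggcgcgggTGAGTCAgaacccagcag

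The JUND and FOSL1 sites lay within 100 bp of the summit in all 4 lists, and they were the only 2 of the 10 that did. The JUND site was at +6609 bp, downstream of the gene, with summits between -8 and 15 bp from it. The FOSL1 site was at +2 bp, at the start itself, with summits between -84 and -61 bp from it, that is on its upstream side. The JUNB site at -5186 bp was matched by 3 lists, with the summits of ETO2-GLIS2 33 and 21 bp downstream of it and that of AML1-ETO at 12 h at -44 bp. The FOSB site at -11883 bp was matched only by ETO2-GLIS2, with summits at -43 and -56 bp, in the strongest peak of that gene in either list. AML1-ETO peaks also covered this site at both times, but their summits, at -11728 and -11721 bp, lay more than 100 bp from it. The other FOSB site at -18974 bp was matched only by AML1-ETO, in peaks ranked at 92.7% and 92.3% of their lists. Another 5 sites were each matched in the AML1-ETO list at 48 h alone, at JUN, FOSL2, ATF3 and, with 2 sites, BATF. The FOSL2 site at +16610 bp in intron 3 was the strongest of these, with the summit 1 bp away in a peak at 4.46% of the list.

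Sequence around 2 summits of ETO2-GLIS2 at 48 h is given next because the stretch held another searched element, again a choice made after the values were seen. Each run is centred on the summit, written on the strand of the gene, and the capitals mark ACCACA (Runt element, TGTGGT on the other strand) or CCCCCCA (GLIS element, TGGGGGG on the other strand).
BATF at -6693 bp, ETO2-GLIS2 48 h, chr14:75982069-75982169, plus strand: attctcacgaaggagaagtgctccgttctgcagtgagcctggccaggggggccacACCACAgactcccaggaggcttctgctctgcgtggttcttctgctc
JUNB at +793 bp, ETO2-GLIS2 48 h, chr19:12903043-12903143, plus strand: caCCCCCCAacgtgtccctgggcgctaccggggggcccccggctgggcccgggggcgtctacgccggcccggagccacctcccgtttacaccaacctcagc

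The JUNB run is coding sequence of the only exon of that gene. Directly upstream of the starts, 250 bases were searched for the same elements in all 20136 genes. The cyclic AMP response element TGACGTCA was present at JUND alone among the 9 genes, at -200 bp, and in 2.37% of all genes. The GLIS element was present at FOS alone, at -231 bp, and in 8.09% of all genes. The Runt element (TGCGGT or TGTGGT) was present at BATF alone, at -32 bp, and in 15.5% of all genes. TGACTCA or TGAGTCA was in none of the 9 and in 3.05% of all genes. These 250 bases are printed for JUND and FOS, the genes whose matched element lay inside an ETO2-GLIS2 peak at 48 h and is discussed with the values below, with the matched element in capitals.
JUND, chr19:18392433-18392682, minus strand: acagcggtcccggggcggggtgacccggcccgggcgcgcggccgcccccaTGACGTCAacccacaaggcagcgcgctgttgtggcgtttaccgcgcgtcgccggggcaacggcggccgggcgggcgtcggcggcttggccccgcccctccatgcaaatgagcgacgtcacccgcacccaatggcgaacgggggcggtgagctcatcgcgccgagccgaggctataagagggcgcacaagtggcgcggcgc
FOS, chr14:75745281-75745530, plus strand: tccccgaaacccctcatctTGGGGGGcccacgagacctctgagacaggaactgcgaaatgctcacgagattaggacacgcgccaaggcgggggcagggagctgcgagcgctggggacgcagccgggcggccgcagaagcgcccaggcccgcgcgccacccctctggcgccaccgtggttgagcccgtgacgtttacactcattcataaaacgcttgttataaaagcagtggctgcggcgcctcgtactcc

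Every one of the 9 genes had at least 1 peak in all 4 lists. AML1-ETO had 93 peaks at these genes at 12 h and 136 at 48 h, and ETO2-GLIS2 had 56 and 59. With every list trimmed to its strongest 28325 peaks, AML1-ETO had 39 and 40. Among all protein-coding genes, 77.7% had a peak in the same kind of window for AML1-ETO at 12 h and 80.4% at 48 h, against 66.4% and 66.1% for ETO2-GLIS2. The median number of peaks at a member gene was 9, 16, 6 and 8 in the order AML1-ETO 12 h, AML1-ETO 48 h, ETO2-GLIS2 12 h and ETO2-GLIS2 48 h. Over all protein-coding genes it was 3, 5, 1 and 1. The windows of the 9 genes ran from 41.8 kb at JUNB to 95.4 kb at ATF3, and a longer window holds more peaks. Of the member peaks, 68, 91, 39 and 41 in the same order had the member's start as the nearest protein-coding start. The remainder lay closer to a neighbouring gene and are described below by that neighbour.

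**Figure D1:**
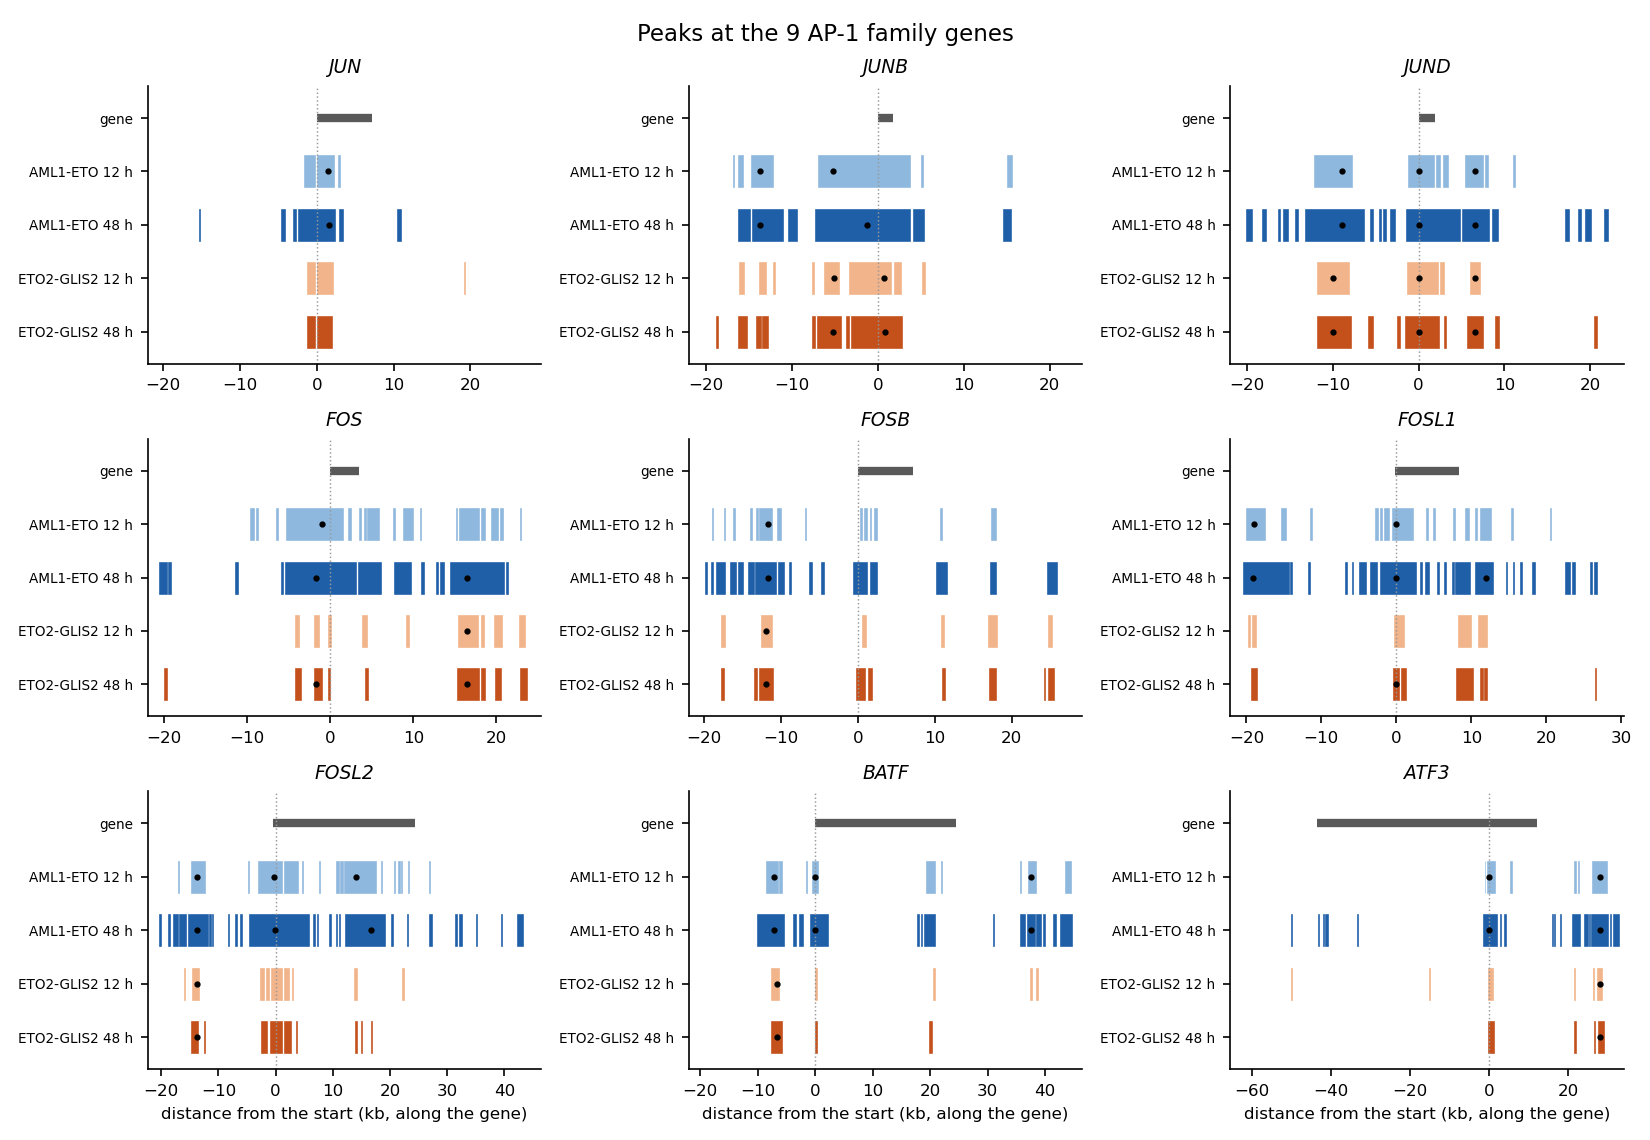
Peaks at the 9 genes drawn by distance from the transcript start in kb along the gene, with a row for each list and a grey bar for the annotated gene. A black dot marks the summit of a peak in the strongest 10% of its list, and the dots of the 4 lists stand at similar distances at JUND and FOSB, whereas FOSL2 has AML1-ETO dots at the start and none there for ETO2-GLIS2.

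The start itself lay inside a peak at 7 of the 9 genes for AML1-ETO at 12 h, where 35.4% of all protein-coding genes had one. At 48 h AML1-ETO covered the start of all 9, against 47.8% of all genes. ETO2-GLIS2 covered 7 starts at 12 h, against 25.1%, and 8 at 48 h, against 30.3%. The starts of 6 genes, JUNB, JUND, FOSL1, FOSL2, BATF and ATF3, were inside a peak in all 4 lists, which held for 18.3% of all genes. JUN and FOSB lacked a peak over the start at 12 h for either protein, and FOS lacked one for ETO2-GLIS2 at 48 h. The nearest edges lay at different distances. At JUN the 12 h peaks began 4 bp inside the gene for AML1-ETO and 16 bp inside it for ETO2-GLIS2, and at FOSB they began 216 and 554 bp inside. At FOS the ETO2-GLIS2 peak at 48 h ended at -54 bp.

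Strong peaks were present at most of the genes. A peak of the strongest 10% of the list lay in the window of all 9 genes for AML1-ETO at both times, against 35.6% of all genes at 12 h and 50.7% at 48 h. For ETO2-GLIS2 this held for 7 genes at 12 h and 8 at 48 h, against 17.5% and 19.7%. The strongest peak of a member gene stood at a median of 2.53% and 1.15% of the AML1-ETO lists and 3.88% and 4.43% of the ETO2-GLIS2 lists. For all genes with a peak in the window these medians were 11.2%, 6.77%, 23.1% and 19.7%. With the window cut to 5 kb the member medians were 4.37%, 2.76%, 16.6% and 10.5%, against 14.3%, 8.74%, 28.4% and 24.7% for all genes with a peak there. The 9 genes thus stood higher than the typical gene in each list with either window, which is a description of 9 named genes and was not tested. The exceptions within the ETO2-GLIS2 lists were JUN at both times, with its strongest peak at 15.8% and 10.8%, and FOSL1 at 12 h, at 16.6%. The values for the proteins are not compared, since their lists differ in length. With all lists trimmed to the same number of strongest peaks, the member medians were 6.34% and 4.29% for AML1-ETO. For ETO2-GLIS2 they were then 3.88% and 4.70%. AML1-ETO thus no longer had the smaller median at 12 h, and kept it at 48 h. The counts for the strongest 10% are not given for trimmed lists.

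**Figure D2:**
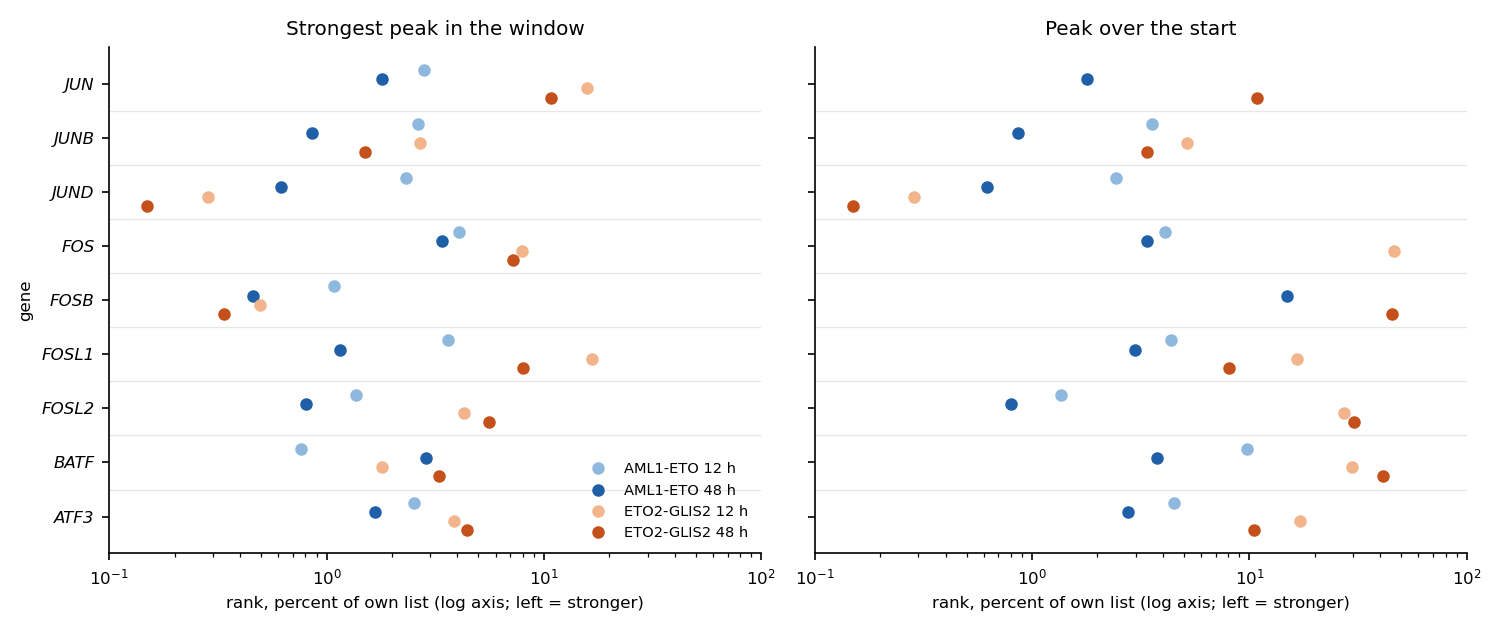
Rank of the strongest peak in the window (left) and of the peak over the start (right) for each gene, as a percent of its own list on a log axis, with a colour for each list. JUND and FOSB lie furthest left for ETO2-GLIS2 in the left panel, and in the right panel FOSB moves to 14.9% or weaker while JUND stays at the same values for ETO2-GLIS2.

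Among the JUN subunits, JUND, the most broadly expressed of them, carried the strongest ETO2-GLIS2 peaks of the family, and they lay on its start. At 12 h this peak ranked 81st of 28325 (0.286%, 118-fold enrichment) and at 48 h it ranked 45th of 30096 (0.150%, 127-fold). AML1-ETO had a peak at the same place, at 2.43% of its list at 12 h and 0.620% at 48 h. The summits of the proteins lay within 26 bp of each other at 12 h and 17 bp at 48 h, in the 5′ part of the only exon, at +58 and +84 bp for AML1-ETO and at +84 bp for ETO2-GLIS2 at 12 h. The start peak was 3516 and 3985 bp wide for ETO2-GLIS2 and 3018 and 6387 bp for AML1-ETO. It reached to -1227 bp or further upstream in each list, so the cyclic AMP response element printed above lay inside it in all 4.

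On either side of JUND stood another region that all 4 lists shared. Upstream, the ETO2-GLIS2 summits were at -10016 bp at both times, at 2.44% and 1.60% of the lists, and the AML1-ETO summits were at -8905 and -8936 bp, at 3.97% and 2.82%. The summits of the proteins were therefore 1111 bp apart at 12 h and 1080 bp apart at 48 h, within overlapping peaks. Downstream, all 4 summits were between +6601 and +6624 bp, on the AP-1 element shown above, at 2.32% and 2.13% of the AML1-ETO lists and 4.29% and 1.76% of the ETO2-GLIS2 lists. This downstream region was nearer to the neighbour IQCN than to JUND, with summits between -569 and -546 bp from the IQCN start. Of the 20 joined regions at JUND, formed by merging peaks of all lists that overlap, 11 were found only for AML1-ETO at 48 h, the longest list.

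JUNB, an immediate early JUN subunit that can restrain the activity of JUN, had the widest peaks of the family. A single AML1-ETO peak covered the start and ran over 10728 bp at 12 h and 11099 bp at 48 h. ETO2-GLIS2 had separate peaks in the same stretch. The stronger was upstream with its summit at -5153 bp at 12 h (2.68% of the list, 48.1-fold) and -5165 bp at 48 h (1.51%, 72.0-fold). The other covered the start with summits at +761 and +793 bp, at 5.14% and 3.36%, and widths of 4881 and 5874 bp. The summit of the wide AML1-ETO peak was at -5230 bp at 12 h, 77 bp from the upstream ETO2-GLIS2 summit, and at -1312 bp at 48 h, away from both. As a result the summits of the start peaks of the proteins were 5991 bp apart at 12 h and 2105 bp apart at 48 h. Further upstream AML1-ETO had a strong peak at -13738 and -13730 bp, at 2.64% and 1.25%, where the nearest ETO2-GLIS2 summits belonged to weaker peaks at 36.1% and 41.4% of the lists. Those summits were closer to the start of the neighbour HOOK2.

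JUN, the founding member of the family, was bound within its only exon. The strongest peak had its summit in the coding sequence in every list, at +1452 and +1560 bp for AML1-ETO and +1551 and +1596 bp for ETO2-GLIS2. It stood at 2.80% and 1.80% of the AML1-ETO lists and 15.8% and 10.8% of the ETO2-GLIS2 lists. A separate upstream peak was present at -493 bp for AML1-ETO at 12 h and at -697 and -1004 bp for ETO2-GLIS2. At 48 h the AML1-ETO peak over the exon ran from -2444 to +2335 bp, which is 4780 bp, and so covered those positions. AML1-ETO at 48 h also had 3 peaks further upstream, with summits at -2856, -4467 and -15302 bp, at 48.4%, 65.8% and 98.9% of the list. JUN had the fewest peaks of the 9 genes for ETO2-GLIS2, with 3 at 12 h and 2 at 48 h, and 3 and 6 for AML1-ETO.

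Among the FOS subunits, FOS, the classical immediate early gene, had peaks of unlike shape in the lists of the proteins. Whether unequal read depth bears on this was not tested. AML1-ETO had a peak of 6880 bp at 12 h and 8525 bp at 48 h over the start, at 4.08% and 3.38% of its lists. The ranks were 2886.5 at 12 h and 3579.5 at 48 h, so the smaller percent at 48 h came with a lower place in a longer list. Under the same stretch ETO2-GLIS2 had narrow separate peaks. Their strongest summit was at -1691 bp at both times, at 10.3% and 7.21%, and the AML1-ETO summit at 48 h, at -1669 bp, was 22 bp from it. Near the start the ETO2-GLIS2 peak was 375 bp wide at 12 h with the summit at -128 bp (46.1%) and 248 bp wide at 48 h with the summit at -207 bp (25.7%). The GLIS element of the printed FOS sequence, at -231 bp, lay inside this peak at 48 h, which ran from -301 to -54 bp, and inside the 12 h peak, which ran from -285 to +89 bp. Downstream, all 4 lists had a summit between +16455 and +16479 bp in the annotated noncoding gene LINC01220, at 15.2% and 6.05% of the AML1-ETO lists and 7.90% and 7.37% of the ETO2-GLIS2 lists. All ETO2-GLIS2 peaks at FOS, 9 of 9 at each time, overlapped an AML1-ETO peak of that time, which among the other genes held at both times for FOSL1 alone.

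FOSB, which also encodes a truncated and stable splice form, had its strong region away from the start. A peak with its summit at -11926 bp at 12 h and -11939 bp at 48 h ranked at 0.496% and 0.337% of the ETO2-GLIS2 lists, with 97.5-fold and 109-fold enrichment. AML1-ETO had its strongest FOSB peak in the same region, with summits at -11728 and -11721 bp, at 1.08% and 0.459%. The region lay in the annotated body of ERCC1, a DNA repair gene, although the start of FOSB was the nearest protein-coding start. At the start of FOSB the peaks were weak: AML1-ETO at 48 h stood at 14.9% and ETO2-GLIS2 at 48 h at 45.2%, with summits in intron 1 at +1035 and +830 bp. At 12 h the peaks in exon 1 and intron 1 did not reach the start. Peaks further downstream, with ETO2-GLIS2 summits at +17416 and +17423 bp (18.7% and 12.7%) and +24891 and +24884 bp (25.1% and 14.1%), were nearer to the start of RTN2.

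FOSL1, which encodes FRA-1, a FOS protein without the transactivation domain of FOS, was bound at its start. Summits of all 4 lists lay between -82 and -59 bp, which was the narrowest range of start summits of the 9 genes, beside the AP-1 element printed above. The peak stood at 4.37% and 2.97% of the AML1-ETO lists (ranks 3097 and 3143) and 16.6% and 8.05% of the ETO2-GLIS2 lists. Its width was 2923 and 4764 bp for AML1-ETO and 1345 and 780 bp for ETO2-GLIS2. FOSL1 lies among close neighbours, and only 5 of 15 and 7 of 23 AML1-ETO peaks in its window, and 1 of 5 and 2 of 7 ETO2-GLIS2 peaks, were nearest to its own start. The strongest AML1-ETO peak of the window, at -18992 and -19084 bp, lay on the start of DRAP1. Other shared regions lay near the starts of CCDC85B and FIBP.

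FOSL2, which encodes the related FRA-2, showed the opposite order of regions for the proteins. For AML1-ETO the peak over the start was the strongest of the gene, at 1.36% of the list at 12 h and 0.802% at 48 h, with widths of 4250 and 10529 bp. For ETO2-GLIS2 the start peak stood at 27.1% and 30.4%, and the strongest was upstream at -13778 and -13741 bp, at 4.30% and 5.61%. AML1-ETO also had that upstream peak, at -13764 and -13755 bp, at 9.63% and 4.58%. The 4 upstream summits lay within 37 bp, and their windows held a Runt and a GLIS element in all 4 lists. Within the gene, AML1-ETO peaks of 5563 and 6958 bp had summits at +14063 bp in intron 2 and +16611 bp in intron 3, at 4.74% and 4.46%. The strongest ETO2-GLIS2 peaks there stood at 30.4% and 41.4%. FOSL2 had 16 AML1-ETO peaks at 12 h, where FOS had 17, and the most of the 9 genes at 48 h, 25. Of its 31 joined regions, 17 were found only for AML1-ETO at 48 h, the longest list.

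BATF, a partner that lacks a transactivation domain and is best known from lymphoid cells, had its strongest peak upstream in every list. The AML1-ETO summits at -7257 and -7249 bp stood at 0.766% and 2.87%. The ETO2-GLIS2 summits at -6685 and -6693 bp, on the Runt element shown above, stood at 1.80% and 3.30%. The summits of the proteins were 572 bp apart at 12 h and 556 bp apart at 48 h, while those of the same protein at the 2 times were 8 bp apart. The windows of the AML1-ETO summits held a GLIS element and those of the ETO2-GLIS2 summits a Runt element. At the start the peaks were weaker, at 9.73% and 3.77% of the AML1-ETO lists and 29.5% and 41.4% of the ETO2-GLIS2 lists, with 1089 and 3250 bp against 465 and 306 bp. Downstream, AML1-ETO had a peak at +37634 and +37619 bp, at 5.48% and 4.84%, nearest to the start of FLVCR2. ETO2-GLIS2 had a peak there at 12 h, at 47.2%, and none at 48 h.

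ATF3, a stress-induced gene whose product can act as a repressor, was bound at different places at its start. The AML1-ETO summits were at 0 and +2 bp, on the start itself, and the ETO2-GLIS2 summits were at +724 and +722 bp in intron 1. The distances between the proteins were thus 724 and 720 bp, and those between the times were 2 bp for each protein. The start peaks stood at 4.51% and 2.76% of the AML1-ETO lists and 17.1% and 10.5% of the ETO2-GLIS2 lists.

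**Figure D3:**
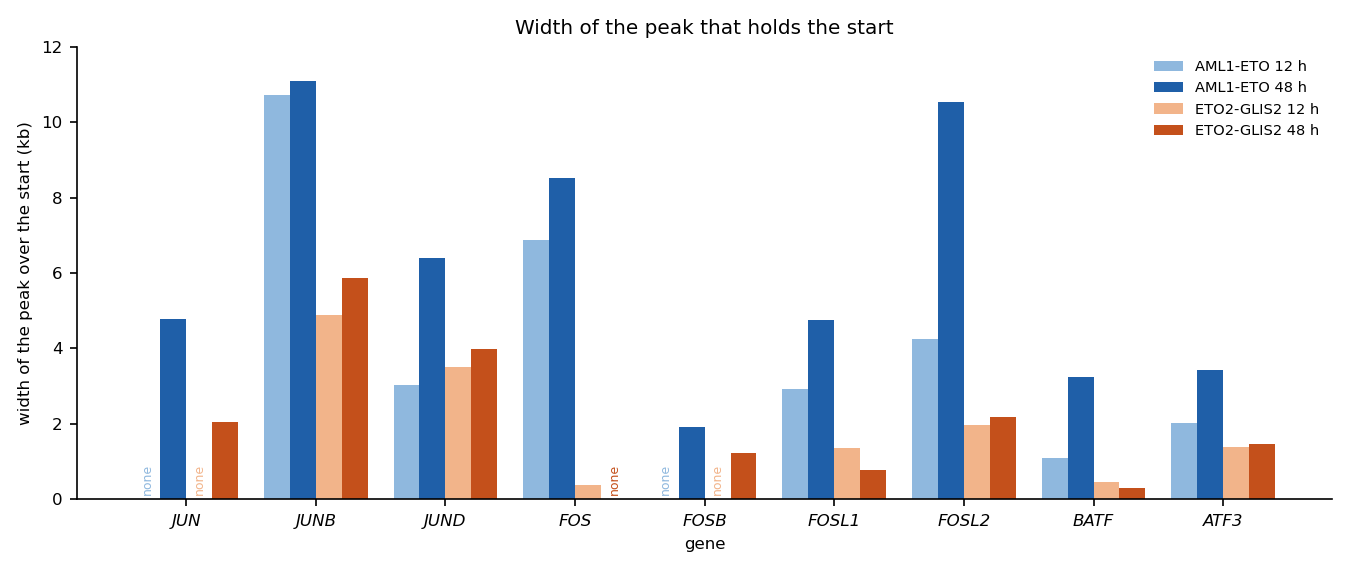
Width in kb of the peak that holds the transcript start, for each gene and list, with none written where no peak holds it. The AML1-ETO bars at 48 h are the highest at every gene, up to 11099 bp at JUNB, and the highest ETO2-GLIS2 bar is 5874 bp, also at JUNB.

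Peaks over the starts of the 9 genes were broad. Their median width was 3018 and 4780 bp for AML1-ETO and 1393 and 1755 bp for ETO2-GLIS2. Over all genes with a start peak the medians were 1454, 2223.5, 929.5 and 1007 bp in the same order. All peaks of the windows together had medians of 363, 471.5, 576.5 and 562 bp, against 360, 415, 382 and 399 bp for the whole lists. The median AML1-ETO peak at these genes was thus close in width to that of its list, while the start peaks were several times wider.

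Most ETO2-GLIS2 peaks at these genes overlapped AML1-ETO peaks, while most AML1-ETO peaks of the longer deposited lists had no ETO2-GLIS2 partner. A peak was called shared where it overlapped a peak of the other protein at the same time by at least 1 bp. For ETO2-GLIS2, 48 of 56 member peaks were shared at 12 h (85.7%, exact 95% interval 73.8 to 93.6), against 74.5% of the whole list. At 48 h, 55 of 59 were shared (93.2%, 83.5 to 98.1), against 83.4%. For AML1-ETO, 41 of 93 were shared at 12 h (44.1%, 33.8 to 54.8), against 26.2%, and 34 of 136 at 48 h (25.0%, 18.0 to 33.1), against 17.8%. The AML1-ETO shares turned on the length of the list: with lists of equal length 84.6% and 72.5% of its member peaks were shared, and at a minimum −log10 q of 5 they were 67.4% and 46.7%. The ETO2-GLIS2 shares turned on the definition of overlap, and 39.3% and 32.2% had an AML1-ETO summit within 200 bp. Shares of the whole lists were not computed under these other settings, so these values give no comparison with the lists. These Clopper-Pearson intervals cover counting error only, since peaks of 1 gene are not independent. The share of the whole list lay inside the interval for ETO2-GLIS2 at 12 h, just below it for both proteins at 48 h, and further below it for AML1-ETO at 12 h.

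**Figure D4:**
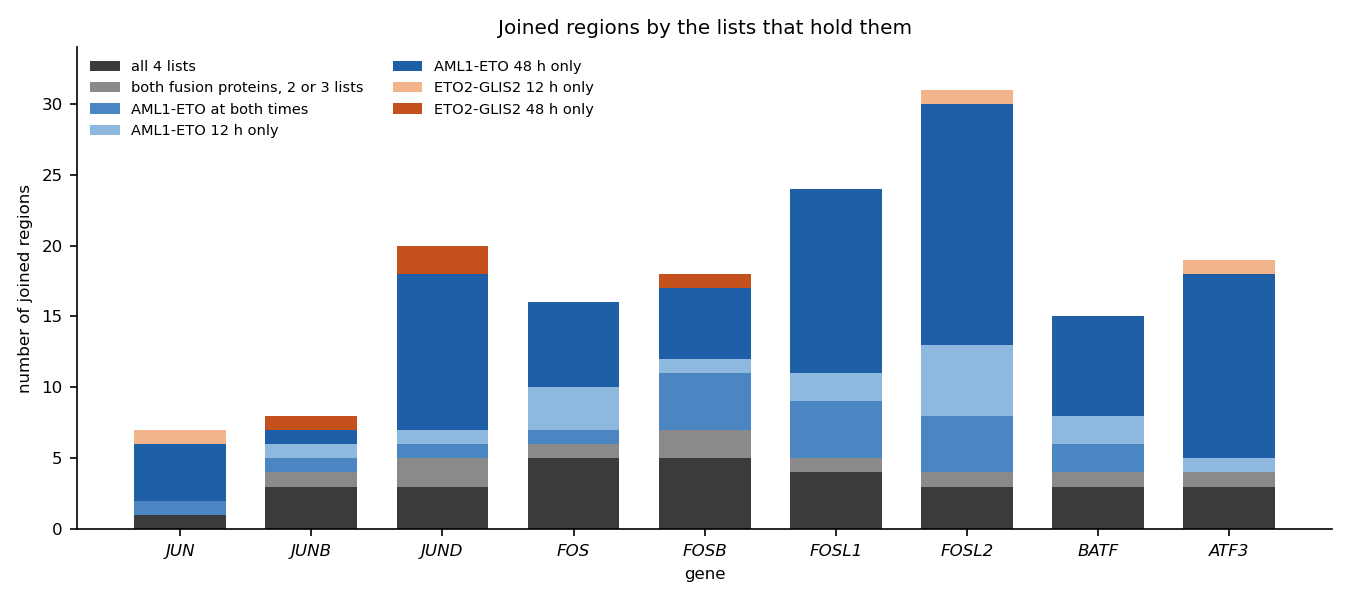
Number of joined regions at each gene, with peaks of the 4 lists merged where they overlap, stacked by the lists that hold them. AML1-ETO at 48 h alone makes up 77 of the 158 regions, and no colour exists for ETO2-GLIS2 at both times without AML1-ETO because there were 0 such regions. The same classes were not counted over all genes.

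When peaks of all lists were joined, the 9 genes had 158 regions. Of these, 30 were in all 4 lists, and each gene had at least 1 such region, from 1 at JUN to 5 at FOS and at FOSB. Both proteins held another 10 regions in 2 or 3 lists. AML1-ETO alone held 18 at both times, 16 at 12 h only and 77 at 48 h only. ETO2-GLIS2 alone held 3 at 12 h only and 4 at 48 h only, and these 7 stood between 64.5% and 99.5% of their lists. No region was held by ETO2-GLIS2 at both times without AML1-ETO. These classes were not counted over all genes, so no trait of the 9 genes is read from the split. AML1-ETO at 48 h is the longest list, with 105769 of the 235023 peaks, and 36.8% of it was found at 12 h.

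In the deposited lists most peaks at these genes were found at both times, except in the AML1-ETO list at 48 h. Of the AML1-ETO peaks at 12 h, 77 of 93 were found again at 48 h (82.8%, 73.6 to 89.8), against 73.9% of the whole list. In the other direction 53 of 136 were found at 12 h (39.0%, 30.7 to 47.7), against 36.8%. That exception was absent with lists of equal length, where 82.5% of the AML1-ETO member peaks at 48 h were found at 12 h, and at a minimum −log10 q of 5 the share was 55.0%. With summits required within 200 bp, 39.8% of the AML1-ETO peaks at 12 h were found at 48 h. The whole-list shares under these other settings were not computed. For ETO2-GLIS2, 43 of 56 were found again at 48 h (76.8%, 63.6 to 87.0), against 60.6%, and 45 of 59 at 12 h (76.3%, 63.4 to 86.4), against 54.6%. At the starts, the AML1-ETO peak was wider at 48 h than at 12 h at all 7 genes with a start peak at both times. The share of all genes for which this held was not computed. Over all genes with an AML1-ETO start peak the median width was also larger at 48 h, 2223.5 bp against 1454 bp at 12 h. The AML1-ETO list was also longer at 48 h, and how far its length bears on the widths was not tested.

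For sequence elements near the summits, the shares of the lists lay inside the intervals at these genes, which were wide because few windows matched. Elements were searched on both strands in 200 bp centred on each summit. The AP-1 element TGACTCA or TGAGTCA was in 4 of 93 and 8 of 136 AML1-ETO windows, near the shares of the lists given above. It was in 4 of 56 and 4 of 59 ETO2-GLIS2 windows. All 4 of these ETO2-GLIS2 peaks, at JUNB, JUND, FOSB and FOSL1, were at the printed sites at each time. The cyclic AMP response element TGACGTCA was in none of the windows in any list, for which the exact upper limits are 3.89%, 2.68%, 6.38% and 6.06%.

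The Runt element, TGCGGT or TGTGGT, was in 19.4% and 19.9% of the AML1-ETO windows at these genes, against 26.7% and 24.9% of the lists. In the ETO2-GLIS2 windows it was in 19.6% and 13.6%, against 23.2% and 21.9%. The GLIS element TGGGGGG was in 10.7% and 11.9% of the ETO2-GLIS2 windows, against 7.72% and 7.89%, and in 4.30% and 5.15% of the AML1-ETO windows, against 4.23% and 3.83%. Every share of a list for these 3 elements lay inside the exact interval at the member genes. The same held for the C/EBP letters TTGCNNAA and the E-box CAGCTG. The Runt share was nonetheless below that of the list, and the GLIS share above it, in every list. With so few matches, intervals of this width cannot show that the shares are equal. The base composition of the windows differed slightly, with a median GC content of 55.5%, 53.0%, 60.0% and 61.0% at the member genes against 52.0%, 51.0%, 57.0% and 59.0% in the lists.

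**Figure D5:**
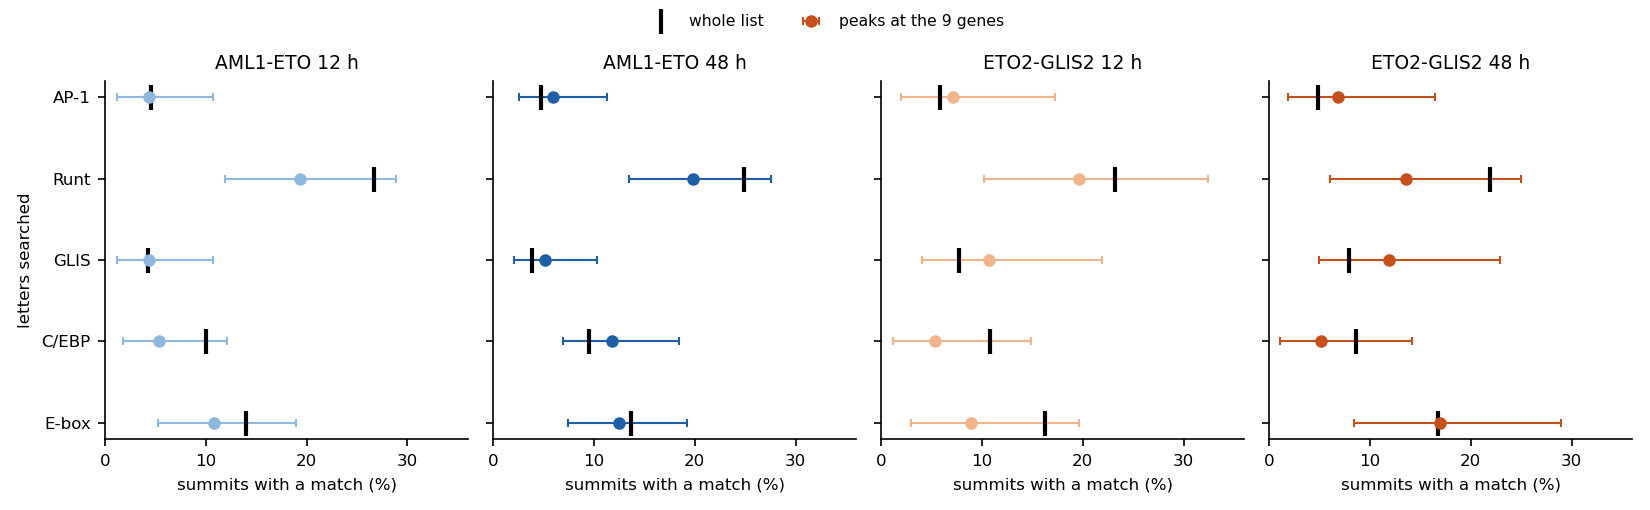
Percent of summits with a match to each searched element in 200 bp, for peaks at the 9 genes (points with exact 95% intervals) and for the whole list (black ticks), in a panel for each list. Every tick lies within the interval of its point.

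Genes connected with AP-1 were examined by their starts in 4 further lists. Of 23 other basic leucine zipper genes that can pair with AP-1 or compete with it, 15 and 19 had a peak over the start for AML1-ETO at 12 and 48 h, and 8 and 13 for ETO2-GLIS2. Of 19 kinases and factors that act upstream of AP-1, the counts were 14, 17, 8 and 12 in the same order. Of 16 other immediate early genes they were 11, 12, 6 and 7. Of 12 reported AP-1 target genes they were 7, 6, 2 and 3. As shares, these run from 58.3% to 73.7% for AML1-ETO at 12 h against 35.4% of all genes, and from 16.7% to 42.1% for ETO2-GLIS2 at 12 h against 25.1%. At 48 h they run from 50% to 89.5% for AML1-ETO against 47.8% of all genes, and from 25.0% to 63.2% for ETO2-GLIS2 against 30.3%. The reported targets had the lowest share in each list. For ETO2-GLIS2 this rested on 2 and 3 of 12 genes, too few to read a difference from the share of all genes. The starts of 7, 4, 4 and 1 genes of the lists were inside a peak in all 4 libraries, which is 30.4%, 21.1%, 25.0% and 8.33% against 18.3% of all genes.

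Individual genes of these lists had peaks as strong as those of the family. The genes named are those with the strongest ETO2-GLIS2 start peak at 48 h in each list. MAFK, encoding a small MAF protein, stood at 2.98%, 2.30%, 5.78% and 2.87% of the lists in the order used above, and BACH1, a repressor that pairs with small MAF proteins, at 2.79%, 0.743%, 2.63% and 3.07%. MAFG, another small MAF gene, had no start peak for ETO2-GLIS2 at 12 h and stood at 3.12% at 48 h. DUSP1, the phosphatase that switches off the kinases upstream of AP-1, had the strongest ETO2-GLIS2 start peak of these 4 lists, at 0.786% at 48 h. SRF, the serum response factor that drives FOS, stood at 1.02% for AML1-ETO at 48 h and 2.96% and 1.68% for ETO2-GLIS2. ELK4, a partner of SRF, stood at 2.51%, 1.00%, 16.9% and 10.5%.

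Among the immediate early genes, KLF10 had the strongest AML1-ETO start peak named here, at 0.0861% at 12 h and 0.0643% at 48 h, with 3.39% and 2.05% for ETO2-GLIS2. IER2 had a peak of 12445 bp for AML1-ETO at 48 h and none over its start at 12 h. IER5 stood at 13.8% and 1.84% for AML1-ETO and at 6.23% for ETO2-GLIS2 at 48 h. Of the reported targets, PLAU, encoding urokinase, was the only gene with its start inside a peak in all 4 libraries, at 11.1%, 4.62%, 30.4% and 20.5%. HMOX1 and PLAUR had no start peak for ETO2-GLIS2 at 12 h and stood at 28.8% and 38.1% at 48 h.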

How the data were processed

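Peaks from anti-HA ChIP-seq in U937 cells were analysed, with 1 library per fusion protein and time and a matching input. Per the labels, the authors aligned reads to hg19 with Bowtie2 2.2.9, handled alignments with SAMtools 1.7 and called peaks with MACS2 2.1.1.20160309. The settings of that caller, the input behind each list and whether duplicates or artefact regions were filtered are not given in the sources used here. The deposited lists give each peak's interval and summit offset (other), a score, the fold enrichment (a linear ratio), and the −log10 p-value and −log10 q-value, all computed by the authors' peak caller. The smallest −log10 q was 1.30 to 1.31 in the lists. These values grow with depth, which the lists do not hold, so no such value was compared between lists, only ranks. Times came from the titles, since the text of the treatment protocol names 48 h for every sample.

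Only chromosomes 1 to 22, X and Y were used. Gene models came from GENCODE 44 (GRCh37 version), and the start was that of the MANE Select transcript, which all 9 genes have, or else the 5′ end of the gene (18917 of 20136 genes had one). Sequences were read from GRCh37. Overlap was at least 1 bp, 95% intervals on shares are exact (Clopper-Pearson, scipy 1.17.1), and no p-value was computed. All scripts ran in Python 3.11.15 with pandas 2.3.3 and were tested on simulated data. Every one of the 9 genes is described, of each connected list the 3 genes with the strongest ETO2-GLIS2 48 h start peak are named, and neighbours are named where a peak lies on or near their start. Sequence over each start was to be shown, but only the stretches that the results turn on are printed, chosen after the values were seen, and of untranslated regions no more than a site of under 30 bases. The members, lists and elements were chosen with earlier results of these data known. Other settings tried were a minimum −log10 q of 5, lists trimmed to their strongest 28325 peaks, windows of 5 kb, other definitions of overlap, of the start and of the nearest gene, and 100 bp around summits. Some sequences at these genes are not reported here.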

Additional observations from a re-analysis of the deposited data

Results flagged for a closer look

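At 3 of the 9 genes the number of peaks changed in opposite directions for the fusion proteins from 12 to 48 h. The share of all genes with such a change was not computed. JUN gained 3 peaks of AML1-ETO (3 then 6) and had 3 and 2 ETO2-GLIS2 peaks, a change of -1. BATF gained 5 AML1-ETO peaks (9 and 14) and had 5 and 3 ETO2-GLIS2 peaks, a change of -2. ATF3 gained 11 AML1-ETO peaks (6 and 17) and had 7 and 4 ETO2-GLIS2 peaks, a change of -3. The ETO2-GLIS2 counts rose at JUND (4 and 8), FOSB (6 and 9) and FOSL1 (5 and 7), and were the same at both times at JUNB, FOS and FOSL2. The ETO2-GLIS2 peak at JUN found at 12 h only ranked at 99.5% of its list. At BATF the ETO2-GLIS2 peaks covered 2.59 kb at 12 h and 2.65 kb at 48 h, though their number fell. With 1 library for each protein and time the difference was not tested. The AML1-ETO list as a whole was longer at 48 h (105769 peaks against 70833). At the 9 genes together AML1-ETO had 93 peaks at 12 h and 136 at 48 h. With every list trimmed to its strongest 28325 peaks it had 39 and 40. Trimmed counts are not given for single genes, so the part of list length at JUN, BATF and ATF3 was not tested. The ETO2-GLIS2 list was also longer at 48 h (30096 against 28325), and the part of list length in its counts was not tested either.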

How the results depend on the processing

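Of 128 values recomputed under other settings, 85 stayed within 1.5 times a count, within the interval of a share or within 1 SD over the 9 genes of a median, and 43 did not. Taking only peaks nearest to the member's start, or starts of any annotated transcript, moved none of 4 values each. At a minimum −log10 q of 5, AML1-ETO had 46 peaks at 12 h and 60 at 48 h (93 and 136 in the full lists), of which 67.4% and 46.7% were shared and 91.3% and 55.0% were found at the other time. The median strongest peak then stood at 5.34% and 2.73% of the AML1-ETO lists, and at 6.70% and 7.51% of the ETO2-GLIS2 lists (within 1 SD), and the Runt share at 48 h was 30.0%. When every list was trimmed to its strongest 28325 peaks, AML1-ETO had 39 and 40 peaks, of which 84.6% and 72.5% were shared and 97.4% and 82.5% were found at the other time, with the median strongest peak at 6.34% and 4.29%. With windows of 5 kb, the lists held 50, 53, 28 and 30 peaks (AML1-ETO 12 and 48 h, ETO2-GLIS2 12 and 48 h), the median strongest peak stood at 4.37%, 2.76%, 16.6% and 10.5%, and the AML1-ETO shares at 48 h were 11.3% (AP-1), 13.2% (Runt) and 1.89% (GLIS). With sharing defined by summits within 200 bp, shared peaks fell to 23.7%, 14.0%, 39.3% and 32.2%, and those found at the other time to 39.8%, 28.7%, 58.9% and 55.9%. When 50% of the peak had to be covered, 28.0% and 10.3% of AML1-ETO peaks and 71.4% of ETO2-GLIS2 peaks at 12 h were shared, and 20.6% of AML1-ETO peaks at 48 h were found at 12 h. Shares of peaks shared or found at the other time were recomputed for the member peaks only, not for the whole lists. In 100 bp around the summit, the Runt share was 9.68% and 13.2% for AML1-ETO, against 15.9% and 14.5% of the whole lists. The AP-1 share of AML1-ETO at 48 h was 2.21%, against 2.44% of the whole list. The lower counts follow from fewer peaks or narrower windows and the lower shared percentages from stricter overlap. Where weak peaks were cut from a list, the strongest peaks kept their ranks. Their larger percents therefore follow from the shorter list. The cause of the other moves was not tested. No paired analysis was possible because each group has 1 library and no test was made. The lists hold no read numbers and depth was not used here, so a peak missing from a list is only one that was not detected. Because wide AML1-ETO peaks cover several ETO2-GLIS2 peaks, overlap of 1 bp counts them as shared even where summits are far apart.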
